A study of Mus musculus with 12 samples.

Results

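The oxidative phosphorylation genes of mouse intestinal stem cells (ISCs) were taken by symbol from a table of 47729 genes. The symbols kept were those starting with Nduf, Uqcr, Atp5, Cox4, Cox5, Cox6, Cox7 or Cox8, the genes Sdha, Sdhb, Sdhc, Sdhd and Cycs, and the protein-coding genes of the mitochondrial genome. After 4 pseudogene symbols were dropped, 106 genes remained, of which 93 are encoded in the nucleus and 13 in the mitochondrion. By name, 45 are subunits of complex I, 7 are complex I assembly factors (Ndufaf), 4 belong to complex II, 9 to complex III, 21 to complex IV and 19 to the ATP synthase, and 1 is cytochrome c.

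RNA-seq compared 4 groups, each with 3 libraries, of ISCs that were purified as EGFP-high cells. The mice had the genotype Lgr5-EGFP-IRES-CreERT2 and the tissue was small intestine. All mice, controls included, carried this allele, in which EGFP marks the Lgr5-expressing crypt cells, and were 8 to 10 weeks old and of either sex, with the sex behind each library not given. The Ctrl mice were kept without food and water while the stress mice were restrained, and the libraries were made after a single exposure, which the methods give as 3 h a session. The titles of the stress libraries carry CRS, the abbreviation the study uses for chronic restraint stress, whereas its account of the RNA-seq gives a single exposure. The vehicle mice received 1 intraperitoneal injection of 20% sulfobutylether-β-cyclodextrin, and the CORT mice received corticosterone at 5 mg/kg in the same solution. Of the stress libraries, those labelled 1+2 and 4+5+6 were read as pools of mice, while the label of the third carries a single number. No source says that the other libraries came from 1 mouse each, so p-values measure the spread between these libraries. The sort kept live EpCAM+ CD24- cells without CD31, CD45 or TER119.

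Oxidative phosphorylation passes electrons from NADH (complex I) and succinate (complex II) through complex III and cytochrome c to oxygen at complex IV, and the proton gradient this builds drives the ATP synthase. Complexes I, III and IV and the ATP synthase are assembled from products of both genomes, whereas complex II is wholly nuclear. The mitochondrial genes are transcribed inside the organelle as long polycistronic RNAs that are cut at the tRNAs, while the nuclear genes are transcribed separately and their proteins are imported. Crypt base stem cells of the small intestine are known for active mitochondrial respiration, and glucocorticoids are known regulators of metabolic genes in many tissues.

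Total counts ranged from 15934907 to 17135770 in the Ctrl and stress libraries, from 16465961 to 31280267 in the vehicle libraries and from 29426183 to 69533214 in the CORT libraries, so that every CORT library but 1 was deeper than every other library. The exception, CORT 5, was shallower than vehicle 6. The deposited counts came to about 4 per read pair, so that a count of 12 stands for about 3 read pairs. The 6 stem cell markers (Lgr5, Olfm4, Ascl2, Smoc2, Slc12a2, Axin2) summed to between 10670 and 13930 CPM in the 12 libraries, where CPM is the count scaled by the TMM-adjusted library total. The 6 enterocyte markers summed to 82.0 to 103.6 CPM in Ctrl but to 693.2 CPM in stress 1+2, 243.0 CPM in stress 3 and 1491 CPM in stress 4+5+6, and to 67.0 to 119.2 CPM in vehicle and 29.5 to 84.4 CPM in CORT. The Paneth cell markers reached 263.1 CPM and the goblet cell markers 1457 CPM in the stress libraries, against at most 173.3 and 613.3 CPM in Ctrl. The enteroendocrine markers stayed at or under 62.5 CPM, the tuft cell markers at or under 11.2 CPM with Il25 at 0, the blood cell markers at or under 1.73 CPM with Hbb-bs at 0, and the stromal and endothelial markers at or under 3.23 CPM with Cdh5 and Col1a2 at 0. In these bulk libraries, fewer cells of a type and less RNA per cell cannot be told apart.

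The mitochondrial genes lie on a circle of DNA so compact that some of them overlap, and the shared bases are shown because reads on them cannot be assigned to 1 gene. In GRCm38 mt-Atp8 and mt-Atp6 share chrM:7927-7969 on the + strand, and the shared stretch opens with the first codon of mt-Atp6.
mt-Atp8 with mt-Atp6: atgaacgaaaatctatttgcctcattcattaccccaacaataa
mt-Nd4l with mt-Nd4: atgctaa
mt-Nd5 with mt-Nd6: ttaatctcgagtaa
The second overlap is chrM:10167-10173, which opens with the first codon of mt-Nd4. The third is chrM:13552-13565, where mt-Nd5 on the + strand, as printed, and mt-Nd6 on the - strand run into each other tail to tail. mt-Nd6 is the only protein-coding gene on its strand, and no source used here states that the counting was strand-specific, so reads of mt-Nd6 and of antisense RNA over it cannot be told apart. Among all 106 genes, 42 share exonic bases with another annotated gene, 12 on the same and 32 on the opposite strand.

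The nuclear genes that passed the test after corticosterone are represented by their promoters, shown with 250 bases before and 50 bases after the start site (RefSeq, GRCm38.p6), since their products join 3 different complexes and their transcripts were higher together. Capitals mark matches, on either strand, to the core of the NRF1 motif (GCATGCGC) or to an ETS motif (CCGGAAG), which the GABP factor reads. The YY1 motif (AAGATGGC) and the motif of the oestrogen-related receptors (TCAAGGTCA) were also searched and had no match in these 4 windows.
Atp5k, chr5:108434350-108434649, - strand: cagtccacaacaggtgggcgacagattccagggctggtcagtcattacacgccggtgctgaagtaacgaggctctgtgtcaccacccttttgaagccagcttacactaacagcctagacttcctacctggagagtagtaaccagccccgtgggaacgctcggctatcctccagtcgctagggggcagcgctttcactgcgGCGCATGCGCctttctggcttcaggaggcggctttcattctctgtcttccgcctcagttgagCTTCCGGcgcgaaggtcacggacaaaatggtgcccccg
Ndufa4, chr6:11907401-11907700, - strand: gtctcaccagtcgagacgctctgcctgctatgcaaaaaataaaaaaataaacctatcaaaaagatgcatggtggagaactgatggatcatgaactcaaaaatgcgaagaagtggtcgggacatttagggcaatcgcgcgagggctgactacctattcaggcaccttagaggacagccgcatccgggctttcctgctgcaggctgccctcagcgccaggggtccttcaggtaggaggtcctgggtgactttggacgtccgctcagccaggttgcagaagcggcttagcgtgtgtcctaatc
Cox7b, chrX:106015450-106015749, + strand: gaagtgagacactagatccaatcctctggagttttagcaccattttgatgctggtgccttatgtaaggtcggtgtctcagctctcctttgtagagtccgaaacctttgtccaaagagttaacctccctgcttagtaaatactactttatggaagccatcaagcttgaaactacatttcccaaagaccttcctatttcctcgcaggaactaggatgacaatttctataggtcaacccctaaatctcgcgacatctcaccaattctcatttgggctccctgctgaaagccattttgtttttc
Ndufb2, chr6:39592315-39592614, + strand: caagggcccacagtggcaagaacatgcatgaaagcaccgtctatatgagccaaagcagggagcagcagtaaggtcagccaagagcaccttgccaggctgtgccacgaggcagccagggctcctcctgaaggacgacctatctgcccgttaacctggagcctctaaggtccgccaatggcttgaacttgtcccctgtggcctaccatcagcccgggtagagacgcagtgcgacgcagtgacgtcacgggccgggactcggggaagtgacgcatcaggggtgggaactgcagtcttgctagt
In Atp5k the capital run near -50 holds the NRF1 core on both strands, and the ETS match lies at 12 bases after the start. The other three windows hold none of the 4 motifs. Promoter windows were found for 77 of the 93 nuclear genes. The NRF1 core was present in 13 of these 77 genes (16.9%), against 3.05% of all 27025 genes with a window and 5.78% of the 10003 among them that were tested in these libraries. The ETS motif was present in 17 (22.1%), against 9.93% and 19.9%. The YY1 motif was present in 11 (14.3%), against 3.19% and 5.23%, and in 9 of the 11 it lay within the 50 bases after the start. The receptor motif was present in 2 (2.60%), Atp5g3 and Sdhd, against 0.466% and 0.340%. A match is a run of letters and does not show binding.

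Most oxidative phosphorylation genes were among the most abundant transcripts of the ISCs. On the scale of FPKM, fragments per kilobase of exon and per sequencing depth, which corrects for length, the 13 mitochondrial genes ranged from 542 (mt-Nd3) to 4705 (mt-Co1) as means over the 12 libraries, with a median of 1520, and the median of the 93 nuclear genes was 129, which lay at the 96.6th percentile of all genes tested. The catalytic β subunit Atp5b was the highest nuclear gene with 1063 FPKM, followed by Cox4i1 with 824.9 FPKM. Within complex I, mt-Nd1 reached 1610 FPKM. In complex II, the flavoprotein Sdha had 224.2 FPKM and the membrane anchor Sdhc 72.8 FPKM. In complex III, the hinge protein Uqcrh led the nuclear genes with 389.0 FPKM, and mt-Cytb reached 2576 FPKM. In the ATP synthase, mt-Atp6 reached 2349 FPKM. Cytochrome c (Cycs) was measured at 43.2 FPKM, and the complex I assembly factors were far below the subunits, with a median of 14.4 FPKM. The FPKM of a gene was averaged over the bases of all its annotated exons, which lowers the value for genes with long rare isoforms such as Ndufb2.

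Of the isoform pairs, the common form was far more abundant in each, and several alternative forms were not detected. Cox6a1 stood at 636.8 FPKM while Cox6a2, the heart and muscle form, had 4 counts in stress 3, 4 counts in CORT 4 and 0 counts elsewhere. Cox4i2, Cox7b2, Cox8b, Cox8c and Ndufa4l2 had 0 counts in all 12 libraries, which allows at most 12 counts (0.173 to 0.753 CPM) in each, whereas Cox4i1, Cox7b, Cox8a and Ndufa4 had 824.9, 148.7, 568.9 and 258.2 FPKM. Cox6b2, known from testis, was detected at 19.9 FPKM beside 344.3 FPKM of Cox6b1. Cox7a1, the heart and muscle form, had 6.23 FPKM beside 152.0 FPKM of Cox7a2 and 282.1 FPKM of Cox7a2l, whose product joins complexes III and IV into supercomplexes. The 3 genes for the c subunit of the ATP synthase, whose mature proteins are the same, were all detected, with 232.8 FPKM for Atp5g1, 411.9 FPKM for Atp5g2 and 565.5 FPKM for Atp5g3. The 6 genes at or near 0 were not tested, and the other 100 were tested in every comparison.

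The mitochondrial genes varied far more between libraries of the same group than the nuclear genes did. They took 2.38%, 2.00% and 2.64% of all counts in Ctrl 1, 2 and 3. In the stress group they took 3.57% in 1+2, 1.88% in 3 and 2.86% in 4+5+6. In the vehicle group they took 2.41%, 1.83% and 1.43% in libraries 3, 5 and 6, and in the CORT group 1.79%, 3.54% and 2.63% in libraries 2, 4 and 5. Every pair of groups overlapped in this share. The nuclear genes together took 1.80% to 1.97% of the counts of Ctrl libraries and 1.82% to 2.03% of those of stress libraries. For vehicle the range was 1.68% to 1.92% and for CORT 1.87% to 2.06%, and these ranges overlapped as well.

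**Figure D1:**
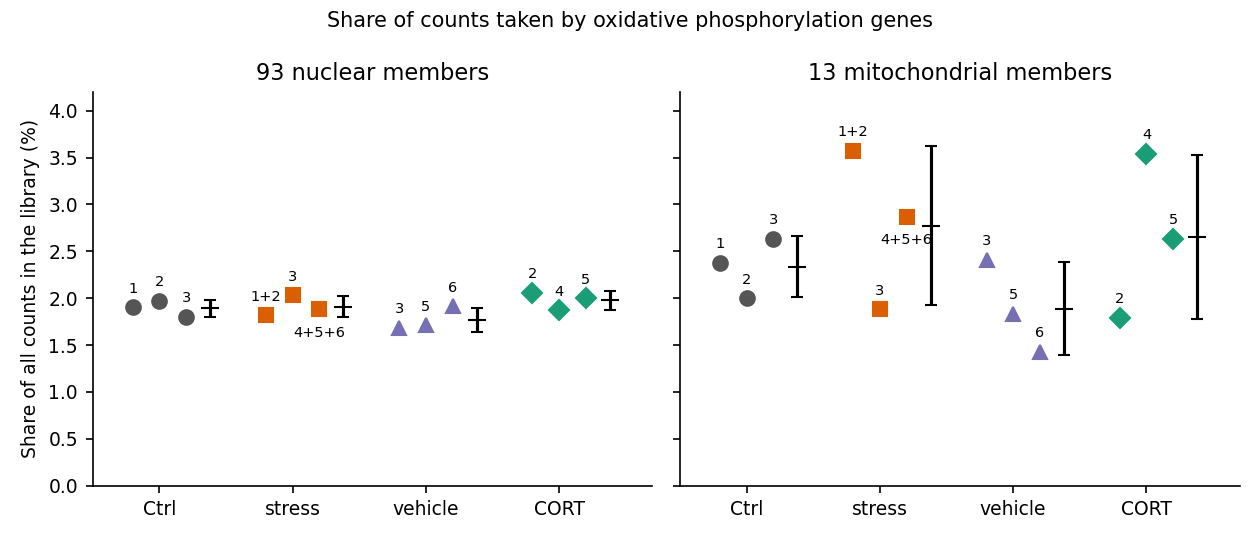
Share of all counts in a library (%, y axis) taken by the 93 nuclear (left) and the 13 mitochondrial (right) genes in the 4 groups; points are libraries with their numbers, and the horizontal bar with whiskers is the mean ± SD of 3 libraries. The nuclear share stays between 1.68% and 2.06%, while the mitochondrial share runs from 1.43% to 3.57% and overlaps between all groups.

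Per gene, the coefficient of variation over the 3 libraries of a group had a median of 12.8% for the mitochondrial genes in Ctrl, and 29.9%, 22.6% and 31.6% for stress, vehicle and CORT. For the tested nuclear genes it was 6.74%, 10.9%, 12.0% and 7.28% in the same order. Across all 12 libraries, the highest level of a mitochondrial gene was a median of 2.48 times its lowest, and that of a nuclear gene 1.41 times. The 13 mitochondrial genes ranked the libraries alike, for in stress 1+2, vehicle 3 and CORT 4 all 13 were the highest of their group, and in Ctrl 2, stress 3 and CORT 2 all 13 were the lowest. Among themselves, the genes kept their proportions to different degrees, which did not follow abundance throughout. mt-Co1 made up 32.2% to 35.95% of their summed CPM in the 12 libraries, mt-Cytb 13.04% to 14.6% and mt-Nd4 8.10% to 9.61%. The scarcer mt-Nd2 took 4.70% to 5.10% and mt-Atp8 1.30% to 1.52%. mt-Nd5 ranged from 4.51% to 6.43%, mt-Nd4l from 0.835% to 1.24%, mt-Nd6 from 1.32% to 1.84% and mt-Nd3 from 0.750% to 1.02%.

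**Figure D2:**
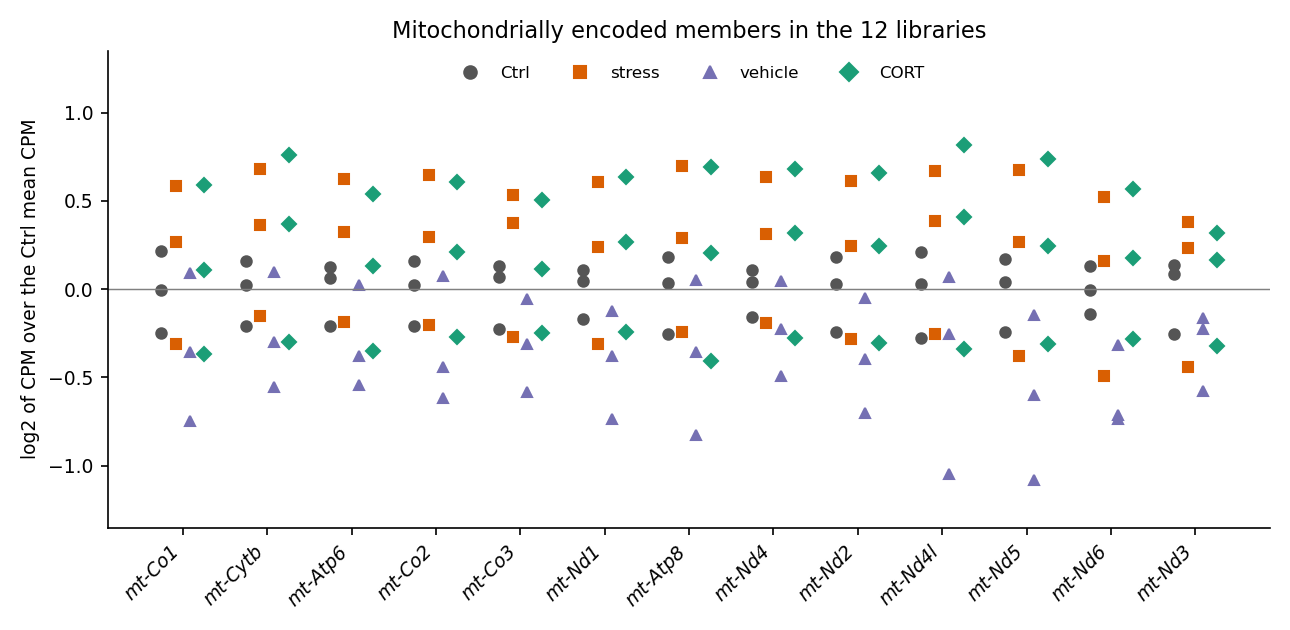
Level of the 13 mitochondrial genes in each library as log2 of the CPM over the mean CPM of the Ctrl group (y axis), with genes ordered along the x axis by mean FPKM; each point is 1 library. For most genes the same libraries are at the top and at the bottom, and for mt-Nd6 the 3 vehicle libraries lie below the 3 Ctrl libraries and below the 3 CORT libraries.

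The nuclear and mitochondrial genes took opposite orders of the libraries in all 4 groups. In Ctrl, library 2 had the highest level of 53 of the 87 tested nuclear genes and the lowest level of all 13 mitochondrial genes, and library 3 had the lowest level of 65 nuclear and the highest of 11 mitochondrial genes. In stress, library 3 was highest for 76 nuclear and lowest for 13 mitochondrial genes. In vehicle, library 6 was highest for 78 nuclear and lowest for 12 mitochondrial genes. In CORT, library 2 was highest for 70 nuclear and lowest for 13 mitochondrial genes, and library 4 was lowest for 76 nuclear and highest for 13 mitochondrial genes. The library medians within a group spanned 1.10-fold (Ctrl), 1.18-fold (stress), 1.20-fold (vehicle) and 1.14-fold (CORT) for the nuclear genes. For the mitochondrial genes they spanned 1.31-fold, 1.85-fold, 1.55-fold and 1.88-fold in that order. Cytosolic ribosomal protein genes, a list of 85 genes chosen after this order was seen, were also highest in Ctrl 2, stress 3, vehicle 6 and CORT 2, where their median lay 0.05, 0.11, 0.16 and 0.21 above the Ctrl mean (log2). Vehicle 6 and CORT 2 were the deepest libraries of their groups, while stress 3 was the stress library with the lowest enterocyte markers. The part of depth or cell composition in this order was not tested.

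**Figure D3:**
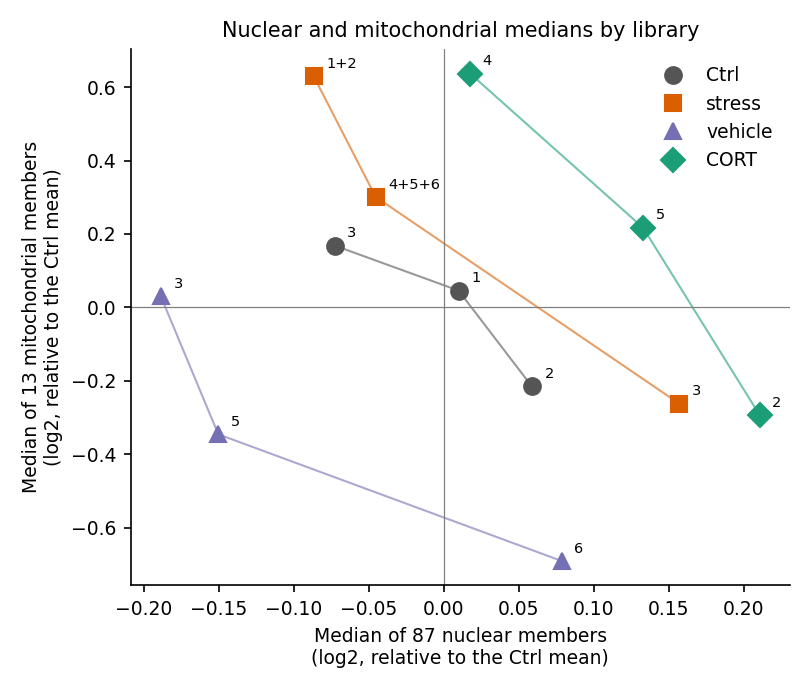
Median level of the 87 tested nuclear genes (x axis) against that of the 13 mitochondrial genes (y axis) in each of the 12 libraries, as log2 relative to the mean of the Ctrl libraries; lines join the 3 libraries of a group. In all 4 groups the line falls from left to right, and the lowest point is vehicle 6.

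The log2 ratio of summed mitochondrial to summed nuclear counts therefore had a wide spread. It was 0.30 ± 0.27 for Ctrl and 0.49 ± 0.55 for stress (SD, n = 3), and 0.06 ± 0.47 for vehicle and 0.37 ± 0.56 for CORT. The difference was 0.19 for stress vs. Ctrl, 0.31 for CORT vs. vehicle and -0.23 for vehicle vs. Ctrl, against pooled SDs of 0.43, 0.52 and 0.38, so that none exceeded 1 SD between libraries. Without stress 1+2 the first difference was -0.05, and without vehicle 6 the last was 0.01.

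For restraint stress against Ctrl, the question was whether a single exposure changed these transcripts. Of the 100 genes tested, 1 was higher and 0 were lower at an adjusted p under 0.05 in edgeR's quasi-likelihood test, whereas 1.30% of all 13722 genes tested were higher and 0.590% lower. At an unadjusted p under 0.05, 4 genes were higher and 1 was lower (5.00% of the set). The share of all genes at that limit was 15.2% in either direction. DESeq2 also called 1 higher and 0 lower, with 4.49% of all genes called in either direction. With limma on log2 FPKM, 0 of the set and 0.13% to 0.743% of all genes were called. The nuclear genes were centred on 0, with a median log2 fold change of 0.00096, 45 above and 42 below 0, and a median standard error of 0.10. By complex, the nuclear medians were -0.02 for complex I, -0.004 for complex II, 0.05 for complex III, 0.07 for complex IV and 0.001 for the ATP synthase. All 13 mitochondrial genes had a positive log2 fold change, from 0.10 (mt-Nd3) to 0.34 (mt-Cytb) with a median of 0.25, and none passed the test, with 0 of 13 at an unadjusted p under 0.05. The libraries of the groups overlapped for every mitochondrial gene. Their median was 0.05 without stress 1+2 and 0.48 without stress 3. Without stress 3, 8 mitochondrial genes (mt-Atp6, mt-Co2, mt-Co3, mt-Cytb, mt-Nd1, mt-Nd4, mt-Nd4l and mt-Nd5) were called higher, and the count of genes called rose from 1 to 9. The share of all genes called in either direction also rose, from 1.89% to 5.98%.

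Cox7a1 was the gene that passed. Its counts were 21, 29 and 9 in Ctrl 1, 2 and 3, and 91, 55 and 173 in stress 1+2, 3 and 4+5+6. On the CPM scale it stood at 1.17 ± 0.59 (SD, n = 3) in Ctrl and 6.32 ± 3.37 in stress, with every stress library above every Ctrl library. The log2 fold change was 2.43 (SE 0.52, adjusted p = 0.0495, edgeR). The values rest on few read pairs. The call was lost without Ctrl 1, 2 or 3, stress 1+2 or stress 4+5+6 (adjusted p from 0.105 to 0.194) and was held without stress 3. The order of the stress libraries, with 4+5+6 highest and 3 lowest, was that of the enterocyte markers, and the part of those cells was not tested.

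The other genes with extreme values did not pass. Cox6b2 had a log2 fold change of 0.46 (SE 0.19, adjusted p = 0.273), with 8.0 to 9.4 CPM in Ctrl and 11.2 to 12.9 CPM in stress. Ndufaf4, an assembly factor, had the lowest value, -0.36 (SE 0.10, adjusted p = 0.130), with 56.3, 53.1 and 58.7 CPM in Ctrl and 43.9, 47.7 and 39.3 CPM in stress, so that the groups did not overlap. The other low values were Ndufa2 at -0.24, Ndufa5 at -0.18, Ndufaf1 at -0.18 and Atp5k at -0.17, with adjusted p from 0.431 to 0.731. The catalytic subunit Sdha stood at 708.0, 678.0 and 657.8 CPM in Ctrl and 748.3, 785.7 and 760.9 CPM in stress, with no overlap and a log2 fold change of 0.17 (SE 0.08, adjusted p = 0.326). Sdhb, Sdhc and Sdhd had log2 fold changes from -0.03 to -0.003, and Cycs had -0.11 (adjusted p = 0.644). In all, 8 of the 100 genes had every stress library above every Ctrl library and 1 had every one below, against 10.2% and 10.2% of all genes tested.

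Corticosterone against vehicle gave the most calls. Of the 100 genes, 5 were higher and 0 were lower, where 3.64% of all 14656 genes were higher and 4.50% lower, so that the share of calls was close to that of all genes. At an unadjusted p under 0.05, 49 were higher and 0 were lower. Of all 14656 genes, 1648 were higher and 1780 lower at that limit (23.4% in either direction). The differences were broad and small. Of the 87 nuclear genes 79 had a positive log2 fold change, with a median of 0.20 (1.15-fold), and all 13 mitochondrial genes had one, with a median of 0.56 (1.48-fold), while the median of all genes was 0.01. Paneth cell markers were lower in these CORT libraries, with a sum of 104.0 to 115.8 CPM against 185.6 to 211.1 CPM in vehicle, and so were tuft cell markers (4.18 to 6.14 against 7.01 to 8.26 CPM), while stromal and endothelial markers were higher (1.46 to 3.23 against 0.389 to 0.950 CPM). These sums did not overlap between the groups, and their part in the results was not tested. The stromal and endothelial sums of the vehicle libraries lay near the floor of 12 counts (0.173 to 0.753 CPM) and rest on few read pairs. All 3 CORT libraries lay above all 3 vehicle libraries for 32 of the 100 genes and below for 2, against 14.3% and 14.5% of all genes.

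**Figure D4:**
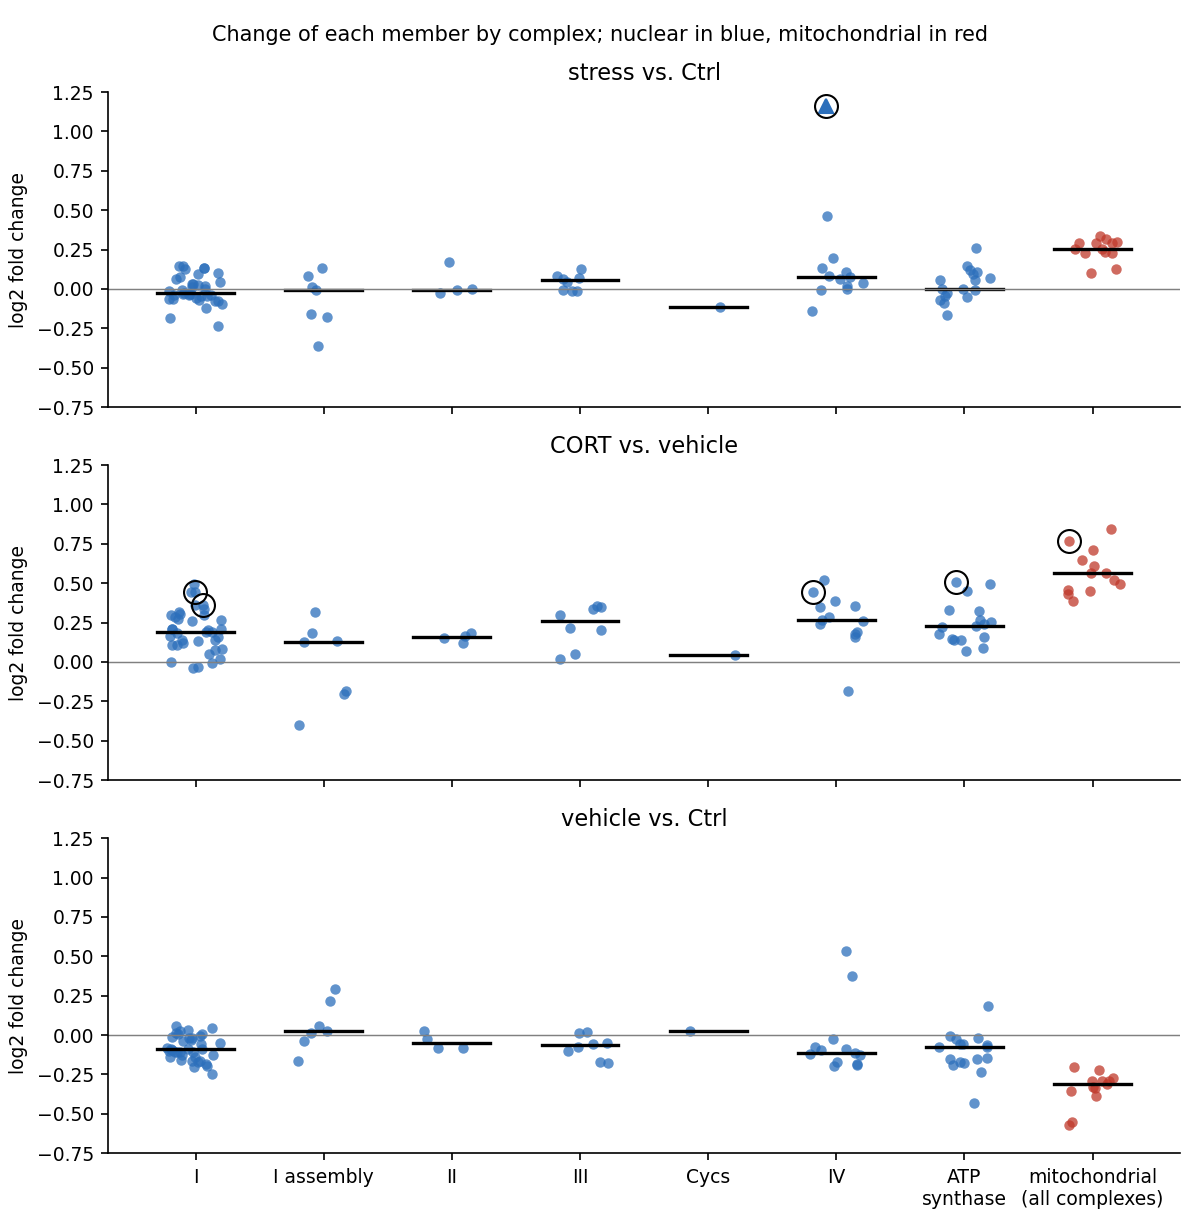
Log2 fold change (y axis) of the 100 tested genes in the 3 comparisons, by complex for the nuclear genes (blue) and together for the mitochondrial genes (red); short bars are medians, rings mark an adjusted p under 0.05, and the triangle marks Cox7a1, drawn near the top of the axis but measured at 2.43. The medians lie above 0 in every class for CORT vs. vehicle and below 0 for the mitochondrial genes in vehicle vs. Ctrl.

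The genes that passed belonged to several complexes. Atp5k, the e subunit that helps hold ATP synthase dimers, had 39.4, 33.7 and 42.6 CPM in vehicle 3, 5 and 6 and 50.4, 55.3 and 59.8 CPM in CORT 2, 4 and 5. It was higher by 0.51 (SE 0.11, adjusted p = 0.0221, edgeR), and the groups did not overlap. Ndufa4, named for complex I but since placed in complex IV, had 146.0, 145.6 and 172.9 CPM in vehicle and 232.6, 200.9 and 200.0 CPM in CORT. It was higher by 0.44 (SE 0.10, adjusted p = 0.0236), again with no overlap.

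Cox7b, a small membrane subunit of complex IV, had 133.9, 128.1 and 150.2 CPM in vehicle and 214.1, 168.8 and 180.1 CPM in CORT. It was higher by 0.45 (SE 0.10, adjusted p = 0.0307). Ndufb2, an accessory subunit in the membrane arm of complex I, had 52.9, 46.5 and 55.4 CPM in vehicle and 71.3, 62.7 and 65.3 CPM in CORT. It was higher by 0.36 (SE 0.09, adjusted p = 0.0412). Its exons share bases with Gm42420 on the same strand and with Braf and Gm16272 on the other, so the value is uncertain. The mitochondrial subunit mt-Nd6, in the membrane arm of complex I, had 316.3, 237.0 and 241.2 CPM in vehicle and 324.4, 585.3 and 446.4 CPM in CORT. It was higher by 0.77 (SE 0.20, adjusted p = 0.0448), and its lowest CORT library lay just above its highest vehicle library.

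**Figure D5:**
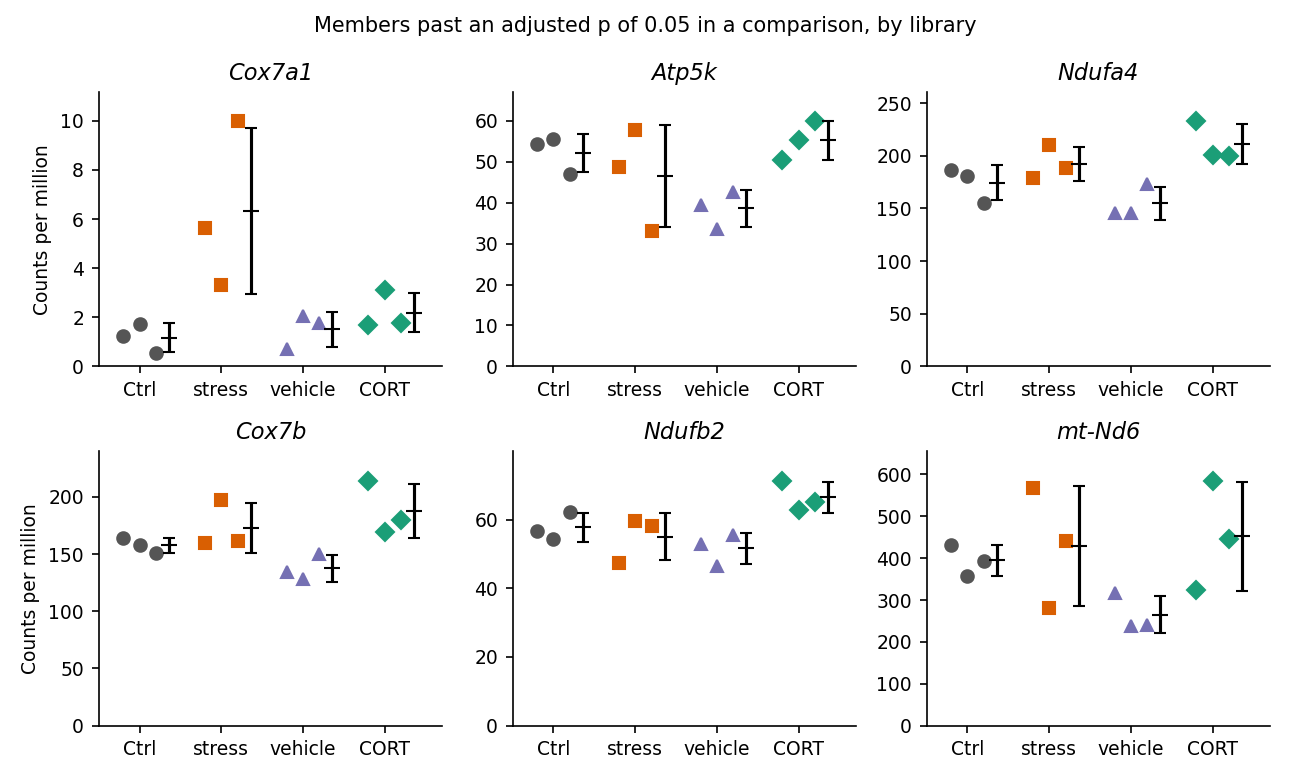
CPM (y axis, from 0) of the 6 genes that passed an adjusted p of 0.05, Cox7a1 for stress vs. Ctrl and the others for CORT vs. vehicle, in the 12 libraries; the bar with whiskers is the mean ± SD of 3 libraries. The CORT libraries lie above the vehicle libraries for the 5 genes called there, and for Atp5k, Cox7b and mt-Nd6 the vehicle libraries also lie below those of Ctrl.

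These calls depended on single libraries. The count of genes called higher was 2 without vehicle 3, 0 without vehicle 5, 16 without vehicle 6, 8 without CORT 2, 1 without CORT 4 and 0 without CORT 5. In the same order, 6.66%, 5.29%, 5.6%, 5.16%, 3.35% and 4.52% of all genes were called in either direction, against 8.13% with all 6 libraries. The 8 genes called without CORT 2 were Atp5k and 7 mitochondrial genes, all of the mt-Nd group but mt-Nd4l together with mt-Cytb. DESeq2 called 20 genes of the set higher and 12.8% of all genes in either direction, and limma on log2(FPKM + 1) called 1, Atp5k, and 9% of all genes.

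Among the mitochondrial genes, mt-Nd5 had the largest log2 fold change, 0.84 (SE 0.28, adjusted p = 0.104), with 1246, 913.2 and 652.4 CPM in vehicle and 1112, 2302 and 1633 CPM in CORT. The 7 mt-Nd genes ranged from 0.39 to 0.84, mt-Cytb stood at 0.56, the 3 mt-Co genes ranged from 0.45 to 0.52, and mt-Atp6 and mt-Atp8 stood at 0.43 and 0.56. mt-Co1, the most abundant, had 8470, 6211 and 4739 CPM in vehicle and 6181, 11980 and 8589 CPM in CORT, with a log2 fold change of 0.46 (SE 0.25, adjusted p = 0.319). For 12 of the 13 the libraries of the groups overlapped. The median of the mitochondrial genes was 0.29 without CORT 4, 0.38 without vehicle 6 and 0.80 without CORT 2.

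By complex, the nuclear genes had median log2 fold changes of 0.19 for complex I (33 of 37 above 0), 0.16 for complex II (4 of 4), 0.26 for complex III (8 of 8), 0.27 for complex IV (12 of 13) and 0.23 for the ATP synthase (17 of 17). The assembly factors differed among themselves, with 4 of 7 above 0 and a range from -0.40 to 0.32. Ndufaf3 had the lowest value of all members, -0.40 (SE 0.18, adjusted p = 0.221), with 15.9, 17.8 and 23.9 CPM in vehicle and 15.6, 12.65 and 15.7 CPM in CORT, all below the vehicle values. Ndufaf4 (-0.20), Cox6b2 (-0.19), Ndufaf1 (-0.18) and Ndufa8 (-0.04) followed, with adjusted p from 0.285 to 0.868. Complex II had small and even values, with log2 fold changes of 0.12 for Sdha, 0.19 for Sdhb, 0.16 for Sdhc and 0.15 for Sdhd (adjusted p from 0.221 to 0.467). Cycs had 0.05 (SE 0.11, adjusted p = 0.853). The c subunit genes had 0.09 for Atp5g1, 0.07 for Atp5g2 and 0.27 for Atp5g3, none past the test.

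Several further genes fell just short of the threshold. Ndufb9 stood at 0.50 (adjusted p = 0.0530), Atp5l, the g subunit of the ATP synthase, at 0.49 (0.0532), Ndufc2 at 0.34 (0.0575), Cox7c at 0.35 (0.0581) and Ndufa9 at 0.31 (0.0639). Ndufb9, Atp5l and Ndufa9 share exonic bases with other annotated genes, so their values are uncertain. Short genes had higher values across the table, for the 1225 other genes with under 1000 exonic bases had a median log2 fold change of 0.11, and the 13331 longer ones of 0.0044. Within these classes, the 24 short nuclear genes of the set had a median of 0.27 and the 63 longer ones of 0.19. With offsets that level each library over 10 classes of exonic length, an alternative chosen after seeing the data, 6 genes were called higher (Atp5k, Cox7b, Cox7c, Ndufa4, Ndufa9 and Ndufb9), and the median of the nuclear genes was 0.17. The fit with these offsets called 9.04% of all genes in either direction. In that fit Ndufb2 (log2 fold change 0.35, adjusted p = 0.0529) and mt-Nd6 (0.64, adjusted p = 0.0939) did not pass. The part of length or depth in these values was not otherwise tested.

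Vehicle against Ctrl sets the 2 control groups side by side. The vehicle mice had 1 injection of the solvent, and the Ctrl mice were kept without food and water. No such deprivation is given for the vehicle mice, so injection and deprivation cannot be told apart. The comparison shares the vehicle libraries with that of corticosterone and the Ctrl libraries with that of stress. No gene of the set passed in edgeR's quasi-likelihood test, with 0 higher and 0 lower of 100, against 0.447% higher and 0.352% lower of all 13642 genes. At an unadjusted p under 0.05, 0 were higher and 8 lower, against 840 higher and 672 lower of all 13642 genes (11.1% in either direction). DESeq2 called 1 lower (mt-Nd6) and 2.41% of all genes in either direction. For limma the count was 0 of the set, with 0% to 0.286% of all genes called across its settings. The median log2 fold change was -0.08 for the nuclear genes (68 of 87 below 0) and -0.31 for the mitochondrial genes (13 of 13 below 0). By complex, the nuclear medians lay between -0.11 (complex IV, 11 of 13 below 0) and -0.05 (complex II, 3 of 4), apart from the assembly factors at 0.03 (2 of 7). Vehicle libraries lay entirely above Ctrl for 1 gene and entirely below for 6, against 8.18% and 8.14% of all genes.

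mt-Nd6 came nearest, with 432.6, 357.5 and 393.8 CPM in Ctrl, all above the vehicle values, and a log2 fold change of -0.57 (SE 0.12, adjusted p = 0.0601). Without vehicle 3 it was called lower along with mt-Nd5, while the share of all genes called in either direction rose from 0.799% to 1.21%. mt-Nd5 followed with -0.55 (SE 0.19, adjusted p = 0.278), then Atp5k with -0.43 (SE 0.12, adjusted p = 0.149), mt-Nd1 with -0.39 and mt-Nd2 with -0.35. Atp5k had 54.3, 55.5 and 46.9 CPM in Ctrl, all above the vehicle values. The highest values were 0.53 for Cox6b2, 0.37 for Cox7a1, 0.29 for Ndufaf3, 0.22 for Ndufaf5 and 0.18 for Atp5sl, with adjusted p from 0.454 to 0.886. The symbol Atp5sl, counted here with the ATP synthase by its name, is an older name of Dmac2, known as a complex I assembly protein.

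The genes called after corticosterone are given here with their Ctrl levels. Atp5k stood at 55.2 ± 4.7 CPM (SD, n = 3) in CORT, 38.6 ± 4.5 in vehicle and 52.2 ± 4.6 in Ctrl. mt-Nd6 stood at 452.0 ± 130.5 CPM in CORT, 264.8 ± 44.6 in vehicle and 394.6 ± 37.6 in Ctrl. Ndufa4 stood at 211.2 ± 18.5, 154.8 ± 15.6 and 174.4 ± 16.8 CPM, Cox7b at 187.7 ± 23.5, 137.4 ± 11.5 and 157.5 ± 6.6 CPM, and Ndufb2 at 66.4 ± 4.4, 51.6 ± 4.6 and 57.7 ± 4.2 CPM, in the same order. These 5 genes were chosen by a comparison that uses the same vehicle and CORT libraries, so the place of Ctrl between them is a description. CORT and Ctrl were not compared by a test.

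Whether the response to stress differed from that to corticosterone was tested as an interaction over all 12 libraries. None of the 100 genes passed in edgeR, where 0.388% of all 14415 genes did. DESeq2 and limma also gave 0 for the set, with 2.75% of all genes called by DESeq2 and 0.0731% to 0.209% by limma. At an unadjusted p under 0.05 the difference was positive for 1 gene and negative for 13, which is 14.0% of the set against 12.5% of all genes. The smallest adjusted p was that of Atp5k, with a difference of -0.68 (SE 0.23, adjusted p = 0.223), followed by Ndufb2 with -0.43 (SE 0.15, adjusted p = 0.230). Cox7a1 had the largest positive difference, 1.90 (SE 0.73, adjusted p = 0.288).

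Genes around the respiratory chain were counted from lists. The lists were chosen with earlier results of these data known, so their counts beside those of all genes are a description. Regulators of mitochondrial biogenesis come first. Ppargc1a, the coactivator PGC-1α, had 14.4, 13.9 and 11.5 CPM in Ctrl, 27.2, 24.3 and 35.4 CPM in stress, 8.91, 13.6 and 10.9 CPM in vehicle, and 31.9, 33.1 and 27.5 CPM in CORT. It was higher by 1.13 (SE 0.18, adjusted p = 0.0149) after stress and by 1.47 (SE 0.17, adjusted p = 0.00117) after corticosterone, with no overlap in either. After corticosterone, the nuclear receptors Ppara and Esrrg were higher by 1.30 and 0.40, while Ppargc1b, Pprc1 and Esrra, which share partners or roles with PGC-1α, were lower, at -0.59, -0.43 and -0.39 (adjusted p from 0.00916 to 0.0297). After stress, Myc was lower at -0.47 (adjusted p = 0.0332), and in vehicle vs. Ctrl, Ppard was lower at -0.56 (adjusted p = 0.0102). In all, 2 of 14 regulators passed for stress, 6 for corticosterone and 1 for the vehicle, with medians of -0.08, 0.04 and -0.07, where 1.89%, 8.13% and 0.799% of all genes tested passed in either direction.

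The other lists had few calls. Of 77 mitochondrial ribosomal protein genes, 0 passed after stress (4 at an unadjusted p under 0.05, all lower) and 2 after corticosterone, Mrpl36 and Mrps18b, both lower (-0.35 and -0.38), and their medians were -0.10, 0.05 and -0.001 in stress, corticosterone and vehicle. Of 44 tested genes for other chain components and assembly factors, 1 passed, 2010107E04Rik, a small ATP synthase subunit, higher by 0.35 after corticosterone (adjusted p = 0.0224), with medians of -0.05, 0.08 and -0.02. Of 27 genes for mitochondrial transcription and RNA handling, 1 passed, Fastkd5, lower at -0.70 after corticosterone (adjusted p = 0.0259), with medians of 0.02, 0.02 and 0.07. Of 19 genes of the tricarboxylic acid cycle and pyruvate dehydrogenase, 1 passed, Dlat, higher by 0.42 after corticosterone (adjusted p = 0.0114), with medians of 0.04, 0.10 and -0.02. Among 18 glycolytic genes tested, Hk2 was higher (0.75) and Pfkp (-0.48), Pfkl (-0.34) and Aldoa (-0.28) were lower after corticosterone, and the list had medians of -0.08, 0.04 and -0.04. These adjusted p-values were from edgeR over all genes.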

How the data were processed

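Libraries were made from random-primed cDNA of sorted cells, and whether counting used strand is not given in the sources used here. The submitters' processing notes name HISAT2 2.2.1, StringTie 2.2.1 and mm10, and the study's methods describe HISAT2 alignment, featureCounts and DESeq2. For each gene and library the authors deposited an estimated count, of which 1 count stands for about 75 bases of read, or 4 counts for a read pair. The deposited files of each library give FPKM per gene, the coverage per gene, which was used to derive exonic lengths, and TPM, which was not used.

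Libraries were grouped by the treatment in the labels. Counts were fitted with edgeR 4.0.16 (TMM, filterByExpr, quasi-likelihood F-test) in R 4.3.3, separately for stress vs. Ctrl, CORT vs. vehicle and vehicle vs. Ctrl on the 6 libraries of each, and for the interaction on all 12. p-values were adjusted over all genes tested (Benjamini-Hochberg), with 0.05 as the threshold. Alternatives were DESeq2 1.42.0, its size factors, other filters, limma 3.58.1 on log2(FPKM + 1) or log2(FPKM + 0.1), library sizes without mitochondrial genes, all 12 libraries, and leaving out each library. Offsets for exonic length were added after the data were seen. The fits were tested on simulated data. The genes, the lists and the tests were chosen with earlier results of these data known. Named genes were all mitochondrial genes, complex II, Cycs, the tissue isoforms, every gene past the threshold, the 5 highest and 5 lowest fold changes of each comparison, the highest FPKM of each complex, and list genes past the threshold; some results under this rule are not reported here. Genes close to the threshold were named after their values were seen. Coordinates follow GRCm38. Floors cover counting error only.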

Additional observations from a re-analysis of the deposited data

How the results depend on the processing

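The count of genes called higher for stress vs. Ctrl was 0 with no filter on low counts, with at least 10 counts in every library and with limma on FPKM in all 3 settings, and ranged from 0 to 9 when 1 library was left out. In the same order, 0.222%, 2.59%, 0.13% to 0.743% and 0.396% to 5.98% of all genes were called in either direction. For CORT vs. vehicle, where the count was 5, it was 20 with DESeq2, 10 with at least 10 counts in every library, 9 with all 12 libraries, 1 with limma on log2(FPKM + 1) or log2(FPKM + 0.1), 0 with limma and no filter, and from 0 to 16 when 1 library was left out. Shares of all genes called there were 12.8%, 10.1%, 8.23%, 9% or 8.93%, 2.52% and 3.35% to 6.66%, in that order. For vehicle vs. Ctrl the count of genes called lower was 1 with DESeq2 and with at least 10 counts in every library, and from 0 to 2 when 1 library was left out. Here 2.41%, 1.17% and 0.143% to 1.21% of all genes were called in either direction. Cox7a1 had 9 counts in Ctrl 3 and so was not tested with at least 10 counts in every library. The cause of the other differences was not tested. The count of genes called in the interaction stayed at 0 in every alternative run, where 0.0731% to 2.75% of all genes were called. Leaving out 1 library, the log2 mitochondrial to nuclear ratio ranged from -0.05 to 0.49 for stress vs. Ctrl, from 0.03 to 0.60 for CORT vs. vehicle and from -0.46 to 0.01 for vehicle vs. Ctrl, and the other ways of forming it moved it by less than the spread between libraries. The median of the nuclear genes for CORT vs. vehicle lay between 0.13 (limma) and 0.28 (without vehicle 6) in all alternatives. No paired analysis was possible because the groups compared share at most 1 number between single libraries, and the pools 1+2 and 4+5+6 have no single counterpart. With 3 libraries a group, the median standard error of a mitochondrial gene was 0.15 to 0.23 on the log2 scale and limits what could be detected.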
